A study of Mus musculus with 10 samples.

Results

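The 8 genes Dkk1, Sfrp1, Sfrp5, Frzb, Wif1, Shisa2, Fzd5 and Fzd8 encode WNT antagonists and frizzled receptors, and the position of OTX2 peaks around each was compared between epiblast stem cells (EpiSCs) and definitive endoderm (DE). They are 8 of 21887 protein-coding genes with a position in the RefSeq table. A peak was attributed to one of them when its centre lay inside the gene or within 50 kb of either gene end, or when the authors' deposited table names that gene as nearest. By this rule the genes held 54 of the 42711 peaks in the DE list and 3 of the 6319 peaks in the EpiSC list. Of the 54 DE peaks, 45 lay within the 50 kb windows and 9 were named for a member from farther away. Unless stated otherwise, counts below are those of the 50 kb windows, none of which overlap one another.

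Peaks came from CUT&RUN, in which an antibody guides a nuclease to a protein on DNA and the released fragments are sequenced. The antibody was anti-HA, against HA-tagged OTX2 in the mouse line 7H OTX2-dTAG-EGFP on a BL6/129 hybrid background. All 4 HA samples used here, 2 of EpiSCs and 2 of DE, carry this tagged allele, and each state is represented by this line alone. The tag is a degron tag (a handle for induced degradation), and the labels give no degrader treatment for these samples. Each sample had 500000 cells. EpiSCs, a culture model of the epiblast, were grown in N2B27 medium. It was supplemented with FGF2 at 12.5 ng/ml, Activin A at 20 ng/ml and NVP (not spelled out in the labels) at 175 nM. The labels of the DE samples give the same FGF2, NVP and EpiSC-stage Activin A, in addition to the DE steps. DE was made in CDM medium in 2 steps. The first, of 16 h, used CHIR at 3 µM with Activin A at 40 ng/ml. The second, of 24 h, used LDN at 100 nM and raised Activin A to 100 ng/ml, and DAPI-based sorting then kept live cells. CHIR is the usual short name of a GSK3 inhibitor that activates the WNT pathway, so DE cells had been exposed to a WNT agonist and EpiSC cultures had no CHIR in their medium per the labels. The identity of the cells could not be checked against marker expression with peak lists alone.

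The authors deposited 1 pooled HA list per state, without a score, height or read depth. Values of the 2 states therefore have no replicate spread, no test of the states was possible, and intervals cover counting error only, under the assumption of independent peaks. The DE list was 6.76 times as long as the EpiSC list, and its narrowest peak was 62 bp wide against 78 bp. Read depth is unknown, and its part in the counts was not tested. IgG controls of EpiSCs (202, 149 and 200 peaks in replicates 1 to 3) and anti-HA in DE of the untagged parental line (14 peaks) gave the background.

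In the canonical WNT pathway, secreted ligands bring a frizzled receptor and an LRP co-receptor together at the cell surface, and β-catenin then accumulates and acts in the nucleus. Secreted antagonists interrupt this outside the cell: Dickkopf proteins occupy the LRP co-receptor, whereas secreted frizzled-related proteins and WIF1 bind the ligands themselves. In the mouse gastrula, such antagonists are made on the anterior side, including the anterior endoderm, where they protect the future head from posteriorising WNT signals. OTX2 is a homeodomain factor that is required for head formation. Shisa2, although listed with the antagonists, is not secreted: Shisa proteins hold frizzled receptors back in the endoplasmic reticulum.

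Promoter windows from RefSeq (GRCm38.p6, the assembly behind mm10) were found for 6 of the 8 genes, all but Sfrp1 and Fzd8. In 3 of these 6 a DE peak overlapped the window of 250 bases before to 50 bases after the start, against 18.3% of 32851 promoter windows in the table. These were the windows of Dkk1, Frzb and Fzd5. No window of the 6 genes overlapped an EpiSC peak (6.33% of all windows did). The 250 bases before the start of these 3 genes are shown because they place the DE peaks at base resolution, with the bases under a DE peak in capitals, 5′ to 3′ on the strand of the gene, which is the minus strand for all 3.

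Dkk1, chr19:30549497-30549746: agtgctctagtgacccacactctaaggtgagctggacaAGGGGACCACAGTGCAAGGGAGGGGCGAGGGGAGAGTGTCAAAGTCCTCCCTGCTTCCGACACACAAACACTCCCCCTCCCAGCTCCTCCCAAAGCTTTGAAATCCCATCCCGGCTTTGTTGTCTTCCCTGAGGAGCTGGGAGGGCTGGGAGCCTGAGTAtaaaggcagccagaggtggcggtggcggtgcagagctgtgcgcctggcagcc
Frzb, chr2:80447397-80447646: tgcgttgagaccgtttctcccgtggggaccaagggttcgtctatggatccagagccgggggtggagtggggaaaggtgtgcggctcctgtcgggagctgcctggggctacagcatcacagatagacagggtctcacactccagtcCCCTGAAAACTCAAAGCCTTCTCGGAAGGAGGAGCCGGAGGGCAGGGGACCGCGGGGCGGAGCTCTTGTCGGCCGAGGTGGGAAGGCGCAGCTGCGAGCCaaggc
Fzd5, chr1:64737751-64738000: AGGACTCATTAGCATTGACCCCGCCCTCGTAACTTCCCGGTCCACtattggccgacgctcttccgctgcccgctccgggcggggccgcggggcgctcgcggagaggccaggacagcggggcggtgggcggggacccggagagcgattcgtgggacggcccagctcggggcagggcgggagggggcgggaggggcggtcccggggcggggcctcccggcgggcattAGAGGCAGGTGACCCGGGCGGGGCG

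At Dkk1 160 of the 250 bases, the whole of 1 DE peak, lay in this stretch, and at Frzb 100 bases, again a whole peak. The Fzd5 stretch held 70 bases from the edges of 2 peaks, 1 at the start and 1 farther upstream, with an uncovered middle. The stretches were rich in G and C (60.8% at Dkk1, 64.4% at Frzb and 76.4% at Fzd5), against 53.8% over all 300-base windows of the table. The letters TAATCC, the core bound by OTX proteins, were searched on both strands in all 6 full windows and had no match. They occurred in 7.06% of all promoter windows and in 7.98% of the 6027 that overlap a DE peak. The shorter TAATC, which is contained in it, also had no match in the 6 windows and occurred in 22.0% of all and 18.3% of DE-overlapping windows.

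All 8 genes had a DE peak within 50 kb, where 82.8% of protein-coding genes did, and 3 of the 8 had an EpiSC peak (Dkk1, Frzb and Fzd5), where 40.8% did. The number of DE peaks was higher than that of EpiSC peaks at 8 of 8 genes, as it was at 79.2% of protein-coding genes, and the reverse held at none of the 8 and at 1.05% of protein-coding genes. A DE peak without any EpiSC peak was found at 5 of the 8 and at 42.3% of protein-coding genes. These shares are near the background, so having a peak, or more of them in DE, is no result about these genes. By number, their median was 6.5 DE peaks against 3 over all protein-coding genes, and 5 of the 8 had at least 6, against 25.2% of protein-coding genes. Peaks in close groups, described below, were each counted singly, and the limit of 6 was not set in advance. Summed over the 8 windows there were 45 DE and 3 EpiSC peaks, a ratio of 15. Over the windows of all protein-coding genes, many of which overlap and count the same peak more than once, the ratio was 4.51. EpiSC peaks made up 6.25% of the 48 peaks in the member windows (exact Clopper-Pearson 95% interval 1.31 to 17.2%) and 12.9% of the 49030 peaks in both lists, a value inside the interval. In the windows of all protein-coding genes, with repeated counting, they made up 18.2%, a value above the interval. The interval assumes independent peaks, and many of the DE peaks lay in close groups, so it may be too narrow. No difference is read from it.

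**Figure D1:**
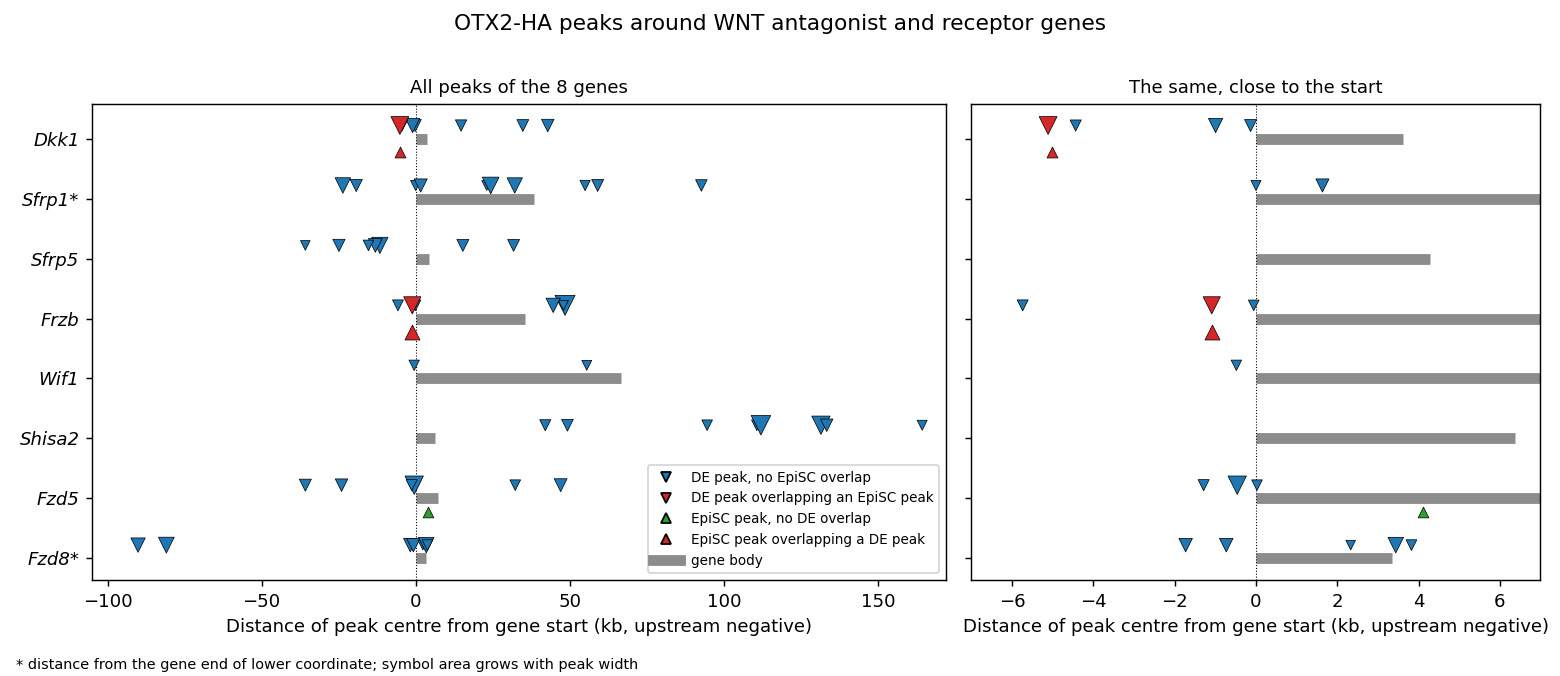
Position of each OTX2-HA peak (triangles, DE pointing down and EpiSC pointing up) in kb relative to the gene start, or for Sfrp1 and Fzd8 (asterisks) to the gene end of lower coordinate, with the gene body as a grey bar, over the whole range on the left and close to the start on the right. The 3 EpiSC peaks lie at Dkk1, Frzb and Fzd5, and the first 2 sit under a DE peak (red).

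By number of DE peaks the order was Sfrp1 with 9 (exact Poisson 95% interval 4.12 to 17.1), then Dkk1, Sfrp5 and Fzd5 with 7 each (2.81 to 14.4), Frzb with 6, Fzd8 with 5, and Wif1 and Shisa2 with 2 each (0.242 to 7.22). The intervals of all 8 overlap, so no neighbours in this order are apart beyond counting error. Of protein-coding genes, 9.33% had 9 or more DE peaks, 18.4% had 7 or more and 70.9% had 2 or more. Per length of window, Dkk1 had 6.76 DE peaks per 100 kb, Sfrp5 6.71, Fzd5 6.53 and Sfrp1 6.51. The lower densities were 4.84 at Fzd8, 4.43 at Frzb, 1.88 at Shisa2 and 1.2 at Wif1, with a median of 2.23 over protein-coding genes. On this scale Dkk1, Sfrp5, Fzd5 and Sfrp1 were nearly level.

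**Figure D2:**
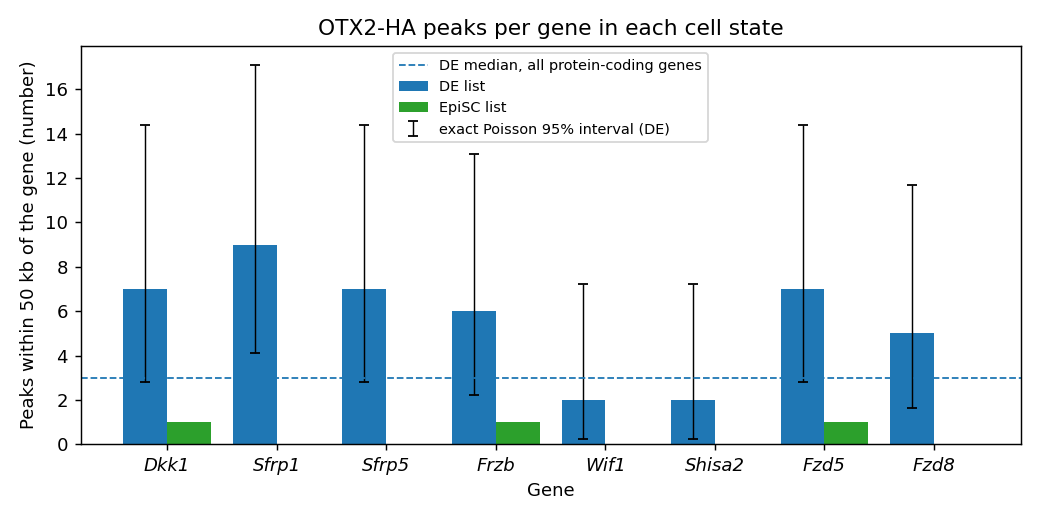
Number of HA peaks within 50 kb of each gene in the DE and EpiSC lists, with exact Poisson 95% intervals for the DE counts. Bars of DE reach 9 at Sfrp1 and 2 at Wif1 and Shisa2, above and below the dashed median of 3 DE peaks over all protein-coding genes.

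**Figure D3:**
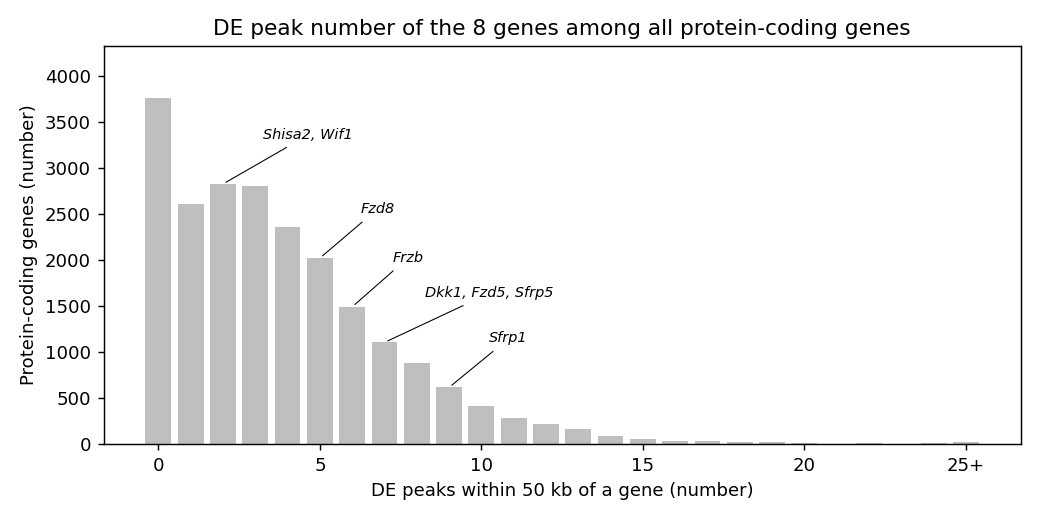
Number of protein-coding genes (y axis) by their number of DE peaks within 50 kb (x axis, 25 and more in 1 bar). The 8 genes are marked at their counts, with 6 of them to the right of the median of 3.

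Among the secreted antagonists, Dkk1 (gene 13380, chromosome 19, 30545876 to 30549496, minus strand, 3621 bp) encodes the Dickkopf protein that blocks LRP co-receptors and is needed for head formation. It had 7 DE peaks and 1 EpiSC peak. Of the DE peaks, 4 lay upstream in 2 close pairs. The first pair was at 30549549 to 30549708 (160 bp, centred 132 bp from the start) and 30550357 to 30550623 (267 bp, 994 bp from the start). The second pair was at 30553872 to 30553993 (122 bp, 4436 bp from the start) and 30554371 to 30554850 (480 bp, 5114 bp from the start). The single EpiSC peak, 111 bp at 30554460 to 30554570, lay wholly inside the last of these, so the place 5 kb upstream was the only one found in both states, and the peak at the promoter was found in DE alone. The other 3 DE peaks lay downstream of the gene, 11123, 31162 and 39248 bp from its 3′ end, with widths of 129, 150 and 182 bp, and were named in the authors' deposited table for the pseudogene Ppp1r2-ps3.

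Frzb (gene 20378, chromosome 2, 80411970 to 80447396, minus strand, 35427 bp), which encodes a secreted frizzled-related protein also known as SFRP3, had a similar layout, with a DE peak at the promoter and a shared place farther upstream. A 100 bp DE peak at 80447402 to 80447501 was centred 55 bp upstream of the start. Next to it a 438 bp DE peak at 80448266 to 80448703, 1088 bp upstream, contained the whole of a 305 bp EpiSC peak (80448322 to 80448626). A 113 bp DE peak followed 5740 bp upstream. The gene body of Frzb held no peak of either list. Beyond its 3′ end were 3 DE peaks of 272, 76 and 630 bp, at 9205, 12520 and 13054 bp from the gene, all named for the lncRNA gene Gm13752. The 630 bp peak was the widest of all peaks attributed to the 8 genes, and 0.311% of the DE list was as wide or wider.

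At these 2 genes, the only ones with a shared peak, the DE interval was wider than the EpiSC interval within it, 480 against 111 bp at Dkk1 and 438 against 305 bp at Frzb. Over the whole lists the DE interval was the wider in 77.9% of 5035 overlapping pairs, with a median ratio of 1.39, and in 61.2% the EpiSC interval lay wholly inside the DE interval. Wider DE intervals at shared places were thus common in the lists and not a feature of Dkk1 and Frzb alone.

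Sfrp1 (gene 20377, chromosome 8, 23411383 to 23449632, 38250 bp) encodes a secreted frizzled-related protein that binds WNT ligands. It had 9 DE peaks within 50 kb, no EpiSC peak there, and a further DE peak named for it 54476 bp away. DE peaks lay inside the gene in 5 cases, the most of any member. These were an 80 bp peak across the gene end of lower coordinate (23411344 to 23411423), a 210 bp peak 1635 bp from that end, and peaks of 71, 406 and 326 bp centred 23062, 24356 and 32163 bp from it. On the lower side, 333 and 167 bp peaks lay 23618 and 19278 bp from the gene, both within the lncRNA gene Gm30370. On the higher side, 90 and 157 bp peaks lay 16747 and 20826 bp away. In the authors' deposited table all 10 were named for Sfrp1, and its window held no peak named for another gene.

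Sfrp5 (gene 54612, chromosome 19, 42197971 to 42202252, minus strand, 4282 bp), a related antagonist, had 7 DE peaks and no EpiSC peak, and differed in layout. No DE peak lay within 10 kb of its start or inside the gene. The nearest upstream group held a 381 bp peak (42213672 to 42214052), a 241 bp peak and a 102 bp peak, 11610, 13082 and 15308 bp from the start. These 3 were named for Sfrp5. The other 4 were named for neighbours. Peaks of 168 and 63 bp farther upstream, at 24890 and 35813 bp, went to Golga7b, and peaks of 155 and 152 bp beyond the 3′ end, 11042 and 27503 bp from the gene, to Zfyve27.

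Wif1 (gene 24117, chromosome 10, 121034004 to 121100642, plus strand, 66639 bp) encodes a secreted protein that binds WNT ligands through its WIF domain, and had the sparsest window. Of its 2 DE peaks, 1 of 92 bp (121033476 to 121033567) was centred 482 bp upstream of the start and 1 of 73 bp lay inside the gene, 55538 bp downstream of the start. Both were narrow, and 76.3% and 90.4% of DE peaks were as wide or wider. The 73 bp peak was also narrower than any peak of the EpiSC list. No EpiSC peak lay in the window.

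Shisa2 (gene 219134, chromosome 14, 59625281 to 59631660, plus strand, 6380 bp), the antagonist that acts inside the cell, had 2 DE peaks within 50 kb and no EpiSC peak. Neither was near the gene: the widths were 119 and 147 bp and the distances from its 3′ end 35690 and 42880 bp. A further 6 DE peaks were named for Shisa2 in the authors' deposited table, from 88218 to 158005 bp beyond its 3′ end. They included 2 of the widest peaks attributed to the 8 genes, 594 bp at 59737034 to 59737627 and 512 bp at 59756558 to 59757069, where 0.447% and 1.03% of DE peaks were as wide or wider. All 8 lay inside the body of the neighbouring gene Atp8a2 (59647531 to 60086914), which encodes a phospholipid flippase, so the gene they are counted for depends on the rule of assignment. How the authors chose the nearest gene is not given in the sources used here. Where the named gene was in the promoter table, it had the nearest start for 75.1% of 22666 DE peaks and the nearest body for 76.6%.

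Frizzled receptors span the membrane and bind WNT ligands, and Fzd5 and Fzd8 are known for expression on the anterior side of the early embryo. Fzd5 (gene 14367, chromosome 1, 64730558 to 64737750, minus strand, 7193 bp) had 7 DE peaks and 1 EpiSC peak, and none was shared. A group of 3 DE peaks spanned 1422 bp at the start: 100 bp across the start itself (64737676 to 64737775), 513 bp centred 462 bp upstream (64737956 to 64738468) and 119 bp centred 1288 bp upstream. The 513 bp peak was in the widest 1.02% of the DE list. Farther upstream lay peaks of 180 and 159 bp, at 24047 and 35794 bp. On the other side, 25128 and 39862 bp beyond the 3′ end, were peaks of 101 and 197 bp that were named for Ccnyl1 and 2810408I11Rik. The EpiSC peak, 103 bp at 64733599 to 64733701, lay inside the gene, 4100 bp downstream of the start, had no DE counterpart and was named for Gm38058.

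Fzd8 (gene 14370, chromosome 18, 9212856 to 9216201, 3346 bp), a close relative of Fzd5, had 5 DE peaks and no EpiSC peak within 50 kb. All 5 lay inside the gene or within 2 kb of it. On the side of lower coordinate, peaks of 232 and 228 bp were centred 731 and 1730 bp from the gene. A 63 bp peak lay inside it, and peaks of 339 and 104 bp were centred 94 and 480 bp beyond the end of higher coordinate. Another 2 DE peaks, of 355 and 273 bp, were named for Fzd8 from 80906 and 90085 bp away on the lower side. The RefSeq table placed no other gene in its 50 kb window. Compared with Fzd5, whose 7 DE peaks were spread to 39862 bp from the gene, the DE peaks of Fzd8 formed a tight group and a distant pair.

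Close to gene ends, 6 of the 8 genes had a DE peak centre within 1 kb of an end, all but Sfrp5 and Shisa2, where 32.0% of protein-coding genes did. The same held for 14 of the 31 other WNT genes described below, among them 5 of 8 other frizzled receptor genes and 5 of 8 genes of membrane antagonists and receptor turnover. Among the 6 with an annotated start, 4 had one within 1 kb of the start (Dkk1, Frzb, Wif1 and Fzd5), where 32.6% of 17492 protein-coding genes did. No member had an EpiSC peak centre within 1 kb of an end, and 11.0% of protein-coding genes did. Of the 31 DE peaks at those 6 genes, 17 were upstream and 14 downstream of the start, 6 lay within 1 kb of it and 11 within 10 kb. Inside the gene they were counted for lay 8 of the 45 DE peaks (17.8%), 5 of them in Sfrp1, against 24.3% over the windows of all protein-coding genes, which differ in gene length.

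Many of the DE peaks came in close groups. With neighbours counted when centres were at most 2 kb apart, 26 of the 54 DE peaks (48.1%) lay in 12 groups of 2 or 3, at all genes but Wif1, while 24.5% of the DE list had such a neighbour. This distance was chosen after the positions had been seen. At 1 kb the shares were 24.1% (13 peaks) and 16.6%, and at 5 kb 61.1% and 38.3%. The tightest larger groups were those of 3 peaks at Fzd5, above, and at Fzd8, where 3 peaks spanned 1579 bp. Members were described here beside all DE peaks, including those far from any gene, and no test of the difference was made.

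Of the 45 DE peaks, 2 overlapped an EpiSC peak by at least 1 bp (4.44%, exact Clopper-Pearson 95% interval 0.543 to 15.1%), against 11.7% of the whole DE list. The interval includes that value. In the other direction, 2 of the 3 EpiSC peaks were shared (66.7%, interval 9.43 to 99.2%), against 78.8% of the EpiSC list. At least 1 shared DE peak was present at 2 of 8 members and at 37.1% of protein-coding genes. Asking for an overlap of 50% of the shorter peak, or for centres within 500 bp, gave the same 2.

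Width, the only measure per peak in these lists, had a median of 157 bp over the 45 DE peaks (interquartile range 102 to 241 bp, 95% interval of the median 119 to 197 bp), against 138 bp in the whole DE list (93 to 209 bp). The interval of the median includes the value of the list. Within the members the range ran from 63 bp at Sfrp5 and Fzd8 to 630 bp at Frzb. Peaks of 300 bp or wider made up 9 of the 45 (20.0%), against 9.55% of the DE list. No interval was made for this share, and the limit of 300 bp was not set in advance. The 3 EpiSC peaks were 103, 111 and 305 bp wide, around the list median of 141 bp.

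**Figure D4:**
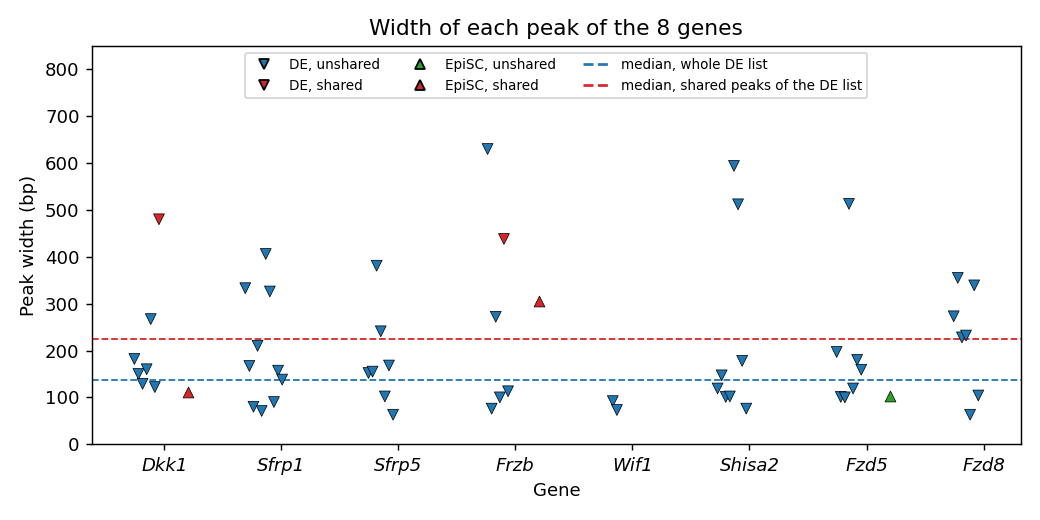
Width in bp of every HA peak of the 8 genes (triangles, DE pointing down and EpiSC up, red where shared). Dashed lines give the median of the DE list, 138 bp, and of its shared peaks, 224 bp. Both shared DE peaks, at Dkk1 and Frzb, lie above the lines, and unshared peaks as wide lie at Frzb, Shisa2 and Fzd5.

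Because the DE list was longer, it was also limited to its 6319 widest peaks, as many as the EpiSC list holds, all at least 259 bp wide. The members then had 11 DE peaks against 3 EpiSC peaks: 3 each at Sfrp1 and Frzb, 2 at Dkk1 and 1 each at Sfrp5, Fzd5 and Fzd8. Wif1 and Shisa2 had none. The EpiSC list kept peaks of all widths, so these 2 counts are not a like comparison. A DE peak of this set lay within 50 kb of 6 of the 8 genes and of 34.8% of protein-coding genes. An EpiSC peak of any width lay within 50 kb of 3 of the 8 and of 40.8% of protein-coding genes. At Fzd5 the numbers were then level, 1 in each list.

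No member peak overlapped an IgG peak or a parental anti-HA peak, and the nearest such background peak was 291940 bp away. For the 54 DE peaks, a count of 0 allows a share of up to 5.56%. In the whole lists 0.0819% of DE and 0.791% of EpiSC peaks overlapped one. IgG peaks from DE were not analysed here.

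The last DE peak inside the 50 kb limit and the first outside differed in width at several genes, with 630 and 105 bp at Frzb and 333 and 138 bp at Sfrp1. The closest DE peaks outside it were at Dkk1 (136 bp, 53130 bp from the gene), Sfrp5 (129 bp, 53839 bp), Sfrp1 (138 bp, 54476 bp) and Wif1 (74 bp, 54572 bp). The farthest inside was the 147 bp peak of Shisa2 at 42880 bp. By the authors' deposited table alone, 42 DE and 2 EpiSC peaks were named for the members, and 12 DE peaks of the windows were named for another gene.

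Other WNT antagonist and receptor genes, 31 in all, were set beside the 8. A DE peak lay within 50 kb of 28 (82.8% of protein-coding genes had one) and an EpiSC peak of 15 (40.8%), with more DE than EpiSC peaks at 28, equal numbers at 3 and fewer at none. The median was 5 DE peaks per gene and 3.78 per 100 kb, against 6.5 and 5.67 for the 8 members. Summed, these genes had 168 DE and 26 EpiSC peaks, a ratio of 6.46. The 8 genes of the group of membrane antagonists and receptor turnover had 47 DE and 3 EpiSC peaks, a ratio of 15.7, so the ratio of 15 at the members was not the highest among these groups.

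Within the families of the members the numbers varied widely. Of the Dickkopf genes, Dkk2 had no peak in either list, Dkk4 had 2 DE peaks, Dkk3 had 4, and the more distant relative Dkkl1 had 8 DE and 3 EpiSC peaks. Sfrp2 and Sfrp4 had 2 DE peaks each, fewer than Sfrp1, Sfrp5 and Frzb, and Sfrp2 had 1 EpiSC peak. Among other secreted antagonists, Cer1, which encodes Cerberus, an anterior endoderm protein that blocks Nodal and BMP ligands, had 6 DE peaks and 2 EpiSC peaks. Notum, a secreted enzyme that removes the lipid of WNT ligands, had 7 DE and no EpiSC peaks, Sost had 5 and 1, and Sostdc1 had none. Shisa3, the relative of Shisa2, had no peak in either list.

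The other frizzled receptor genes all had a DE peak, from 1 at Fzd1 to 8 at Fzd3, and 5 of the 8 had an EpiSC peak. Fzd2 had 7 DE and 4 EpiSC peaks, and Fzd7 had 7 and 2. At Fzd2, 4 of the 7 DE peaks overlapped an EpiSC peak. None did at Fzd5 and Fzd8, nor at Fzd1, Fzd6, Fzd9 and Fzd10, and over the whole DE list 11.7% of peaks did. Of the co-receptor genes, Lrp6 had 5 DE peaks and 1 EpiSC peak and Lrp5 had 3 and 2. Ror1, a gene of 349016 bp, had the most DE peaks of the list, 20, or 4.45 per 100 kb. Among membrane antagonists and genes of receptor turnover, the ubiquitin ligase genes Znrf3 and Rnf43 had 8 and 4 DE peaks, and Trabd2b, which encodes a WNT-cleaving protease, had 13. In number of DE and EpiSC peaks, Ryk and Znrf3 (8 and 0 each) were closest to Sfrp1 (9 and 0), by the summed absolute difference over the 2 lists. Apcdd1 and Notum (7 and 0 each) and Kremen2 (9 and 2) were tied behind them.

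**Figure D5:**
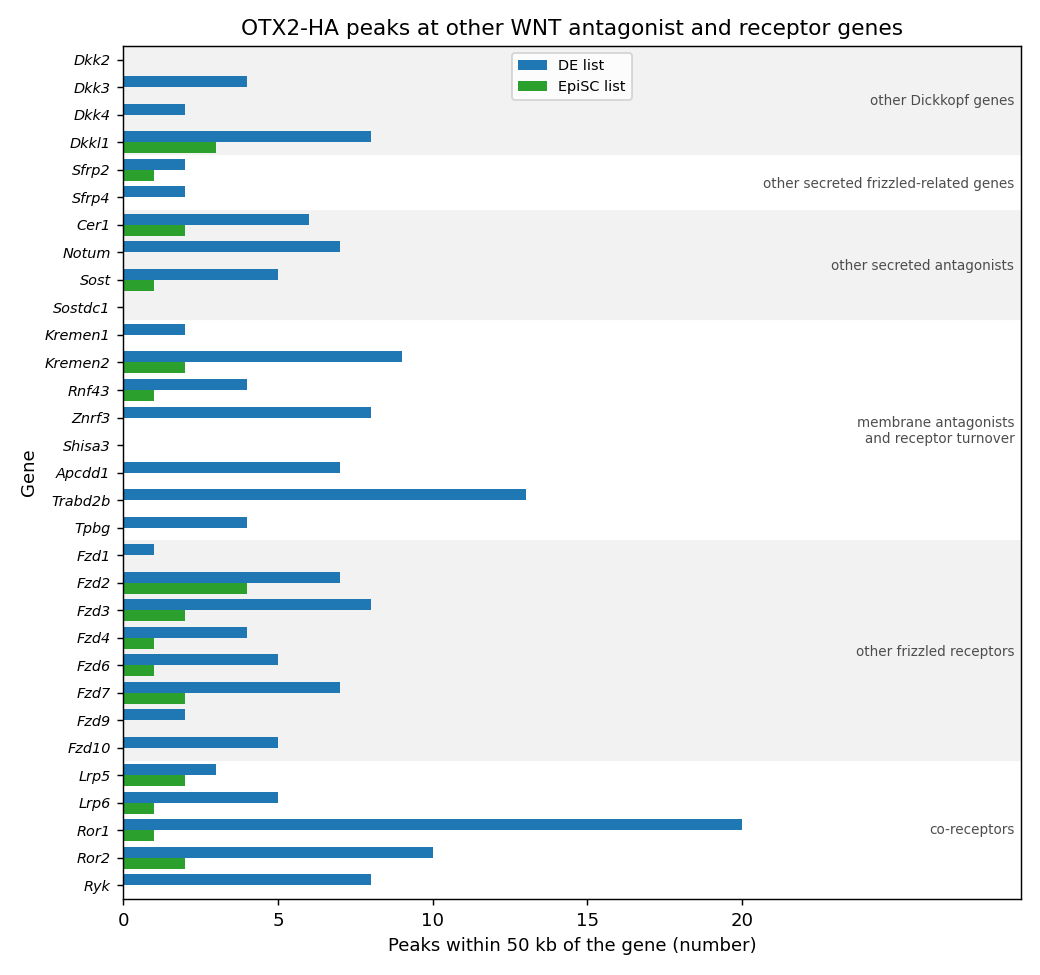
Number of HA peaks within 50 kb (x axis) of 31 other WNT antagonist and receptor genes (y axis, grouped by role) in the DE and EpiSC lists. DE bars reach 20 at Ror1, the EpiSC bars reach 4 at Fzd2, and Dkk2, Sostdc1 and Shisa3 have no bar.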

How the data were processed

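Peaks were taken from the authors' deposited lists, 1 per state for both HA replicates, which give positions only, merged over 50 bp per the file names, and from a table of the same intervals with the nearest gene. The submitters' processing notes name Bowtie2 2.3.5.1, SAMtools 1.14, Picard 2.26.10, bedtools 2.30 and MACS2 2.2.6 with the build mm10. Peak thresholds and controls are not given in the sources used here. The label of the second EpiSC HA replicate also names the DE list. The description of IgG in tagged DE points to that list too. These entries were treated as errors, and the list was used for the 2 DE HA replicates only. Marks of changed genes in the table were not used.

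Positions were written from 1 and joined to RefSeq genes (GRCm38.p6) in Python 3.11.15 with pandas 2.3.3, numpy 2.4.6 and scipy 1.17.1. Counting and overlap were tested on simulated data. Peaks were shared at an overlap of at least 1 bp. Distances run from peak centres to the RefSeq start where the text names the start, and otherwise to the closer gene end or the end named. For Sfrp1 and Fzd8 gene ends were used throughout. Intervals are 95% intervals. The members and lists were chosen with earlier results of these data known. Genes named were the members, 31 other WNT genes, neighbours in the windows or named as nearest there, and the 3 genes most like the member with the most DE peaks (ties in alphabetical order; genes tied for the last place are named too). Genome sequence was not used beyond the promoter table.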

Additional observations from a re-analysis of the deposited data

How the results depend on the processing

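No paired analysis was possible because each state has 1 pooled HA list, which also means that leaving out an HA replicate was not possible. Over 58 alternative values of 11 main results, 52 were kept (counts within 1.5 times, other values within their interval) and 6 moved. A window of 100 kb gave 69 DE peaks over the 8 genes (45 at 50 kb) and 6 EpiSC peaks (3 at 50 kb). The widest DE peaks alone gave 11 DE peaks and 16 of the other WNT genes with a DE peak (28 with all peaks), from a shorter list. The shared percent was then 18.18, as the same number of shared peaks, 2, stood among fewer. In that list as a whole 30.2% of DE peaks were shared. Groups of neighbours within 1 kb held 13 DE peaks (26 at 2 kb). At 25 kb Shisa2 had no DE peak. Of 64 alternative values of the per-gene difference between DE and EpiSC, none reversed, 4 were 0 and 15 moved. Leaving out any IgG list changed no count, as no member peak overlapped one. Read depth is unknown, and its part in the counts was not tested.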

Other observations

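Between 50 and 100 kb the 8 genes differed in what was added. Fzd5 rose to 15 DE peaks and Dkk1 to 11, with no further EpiSC peak at either, and Frzb gained 1 DE peak, to 7. Sfrp5 was the only member to gain EpiSC peaks, 3 of them, with 9 DE peaks in all. They lay on chromosome 19 at 42128975 to 42129179 (205 bp), 42136033 to 42136375 (343 bp) and 42142155 to 42142236 (82 bp), 55775 to 68894 bp beyond the 3′ end of Sfrp5, and the first was shared with DE. The authors' deposited table names Avpi1 for the first 2 and Marveld1 for the last.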
